A study of Mus musculus with 7 samples.

Results

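The 37 genes described here are imprinted genes, that is, genes read mainly from the chromosome copy that came from the mother or mainly from the copy that came from the father. They were listed by name and grouped by imprinted cluster, with 26 genes in 7 clusters and 11 outside these clusters, and all 37 were found among the 34411 coding and long non-coding RNA genes of RefSeq on mouse build GRCm38. For each gene, open chromatin was read in a promoter window of 1000 bp upstream to 100 bp downstream of every RefSeq start site and in the peaks within 10 kb of the gene body. Peaks of the 7 libraries that shared a base were merged into regions, and 1523 of the 879881 merged regions lay within 10 kb of an imprinted gene.

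ATAC-seq, which reads open chromatin from where a transposase can cut DNA, was performed on cells sorted from the second heart field region of mouse embryos at E9.5. In the Hoxb1-GFP line, in which GFP marks Hoxb1-expressing cells of the posterior second heart field, 2 libraries were made from GFP+ cells (replicates 3 and 4) and 2 from GFP- cells (replicates 1 and 2). In the Mef2c-Cre;Rosa tdT line, in which Cre driven by the anterior heart field enhancer of Mef2c leaves a lasting Tomato label on the cells and their progeny, 2 libraries were made from Tomato+ cells (replicates 6 and 8) and 1 from Tomato- cells (replicate 7). Each library came from 10000 cells of dissected regions pooled from more than 3 embryos per genotype, and no library came from a line without a reporter. The labels do not say that replicates came from separate pools, so that the spread between them may be technical. GFP+ and Tomato+ cells came from different lines, so that population and mouse line cannot be told apart, and the peak lists carry no allele, so that a peak cannot be assigned to the maternal or the paternal copy.

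The 7 lists held 187914 to 291287 peaks from an estimated 52340120 to 93074895 tags. The height of a peak is given as the relative pileup, which is the pileup of extended tags at the strongest summit divided by the library's median pileup over the 34769 merged regions with a peak in all 7 libraries, so that a value of 1 is a typical shared region of that library. These medians ran from 20 to 30 tags. Peaks with a -log10 q-value of at least 2, that is a q-value of at most 0.01, are called strong below and the others weak, and 64306 to 77746 peaks per library were strong. A lower relative pileup cannot be told apart from fewer cells with the site open, or from 1 open copy in place of both. At Mef2c, whose enhancer drives the Cre, the promoter reached 5.7 and 2.09 in Tomato+ against 0.818 to 1.3 in the other libraries, whereas the Hoxb1 promoter was 0.80 and 0.625 in GFP+ against 0.40 to 0.773 in the others. Of the fixed marker promoters, 0 of 5 blood, 1 of 4 endothelial, 2 of 4 neural tube, 0 of 3 neural crest and 0 of 3 endoderm genes were strong in all 7 libraries, against 3 of 7 second heart field and 2 of 6 posterior second heart field genes. Of the blood genes, strong peaks were listed at 0 to 2 promoters in each positive or GFP- library and at 3 in Tomato-.

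Imprinting rests on DNA methylation that is set in the egg or the sperm at imprinting control regions and kept after fertilization on that copy only. Maternally methylated control regions mostly overlap a promoter, often of a long non-coding RNA that silences its neighbors in cis, whereas paternally methylated ones lie between genes, as upstream of H19, where CTCF binds the unmethylated maternal copy and blocks the Igf2 promoter from shared enhancers. Zinc finger proteins such as ZFP57, with TRIM28 and DNMT1, hold the methylation in place. Many imprinted genes act on the growth of the embryo and the placenta, among them Igf2, Igf2r, Cdkn1c, Grb10, Plagl1 and Dlk1.

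Strong promoter peaks were present in all 7 libraries at 15 of the 37 imprinted genes (40.5%), beside 38.2% of all genes. Peaks at any deposited threshold were present in all 7 libraries at 26 members (70.3%), beside 44.7% of all genes. No member lacked a promoter peak in every library, whereas 25.6% of all genes did. Between these ends, 19 members (51.4%) had a strong peak in 1 to 6 libraries, beside 19.8% of all genes, and 3 (8.11%; Rian, Mirg and Slc22a2) in none, beside 42.1%. Per library, 25 to 30 members (67.6 to 81.1%) had a strong promoter peak, beside 45.4 to 48.1% of all genes. The lowest count was in GFP+ replicate 3 and Tomato+ replicate 6 and the highest in Tomato-, the library with the most estimated tags.

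Most of these peaks were lower than typical ones. Over the 26 members with a promoter peak in all 7 libraries the median relative pileup was 0.848, beside 1.33 over the 15366 genes with such a peak. The lowest of these members was Nap1l5, with 3.89% of those genes below it, followed by Zrsr1 with 5.79%, Ascl2 with 9.32% and Nnat with 10.3%. The highest was Ube3a, with 97.0% of genes below it, followed by Zim1 with 84.9%, Impact with 80.5% and Gnas with 71.7%. Sorted by expressed copy, the median was 0.783 over 13 of the 14 genes that start in a maternally methylated germline region, 0.783 over 6 of the 8 other paternally expressed genes, 1.4 over 5 of the 13 maternally expressed genes and 1.39 over Grb10 and Gnas, whose expressed copy depends on tissue or promoter. The list of maternally expressed genes thus held both the highest promoter, that of Ube3a, and all 3 promoters without a strong peak. The lists follow known imprinting, which for Ube3a is found in neurons and for Slc22a2 in the placenta. The expressed copy in these cells was not measured.

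CpG content separated the promoters further. A window was called island-like at a GC content of at least 50% and a ratio of observed to expected CpG of at least 0.6. Of the 7880 genes with an island-like window, 90.2% had a strong promoter peak in all 7 libraries, whereas 8 of the 14 such imprinted genes did, and Igf2, Phlda2, Dlk1, Sgce, Plagl1 and Rasgrf1 did not. Of the 26531 genes with no island-like window, 22.7% had one, and of the 23 such imprinted genes 7 had. A window ends 100 bp downstream of its start, so that CpG content further into a gene was not counted. Of the 14 genes that start in a maternally methylated germline region, 4 had an island-like window. Peg10 and Sgce share the same peak, and only Sgce had an island-like window. The median relative pileup was 0.95 over 13 island-like members and 0.783 over 13 others, beside 1.57 and 1.12 over the genes of each kind.

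**Figure D1:**
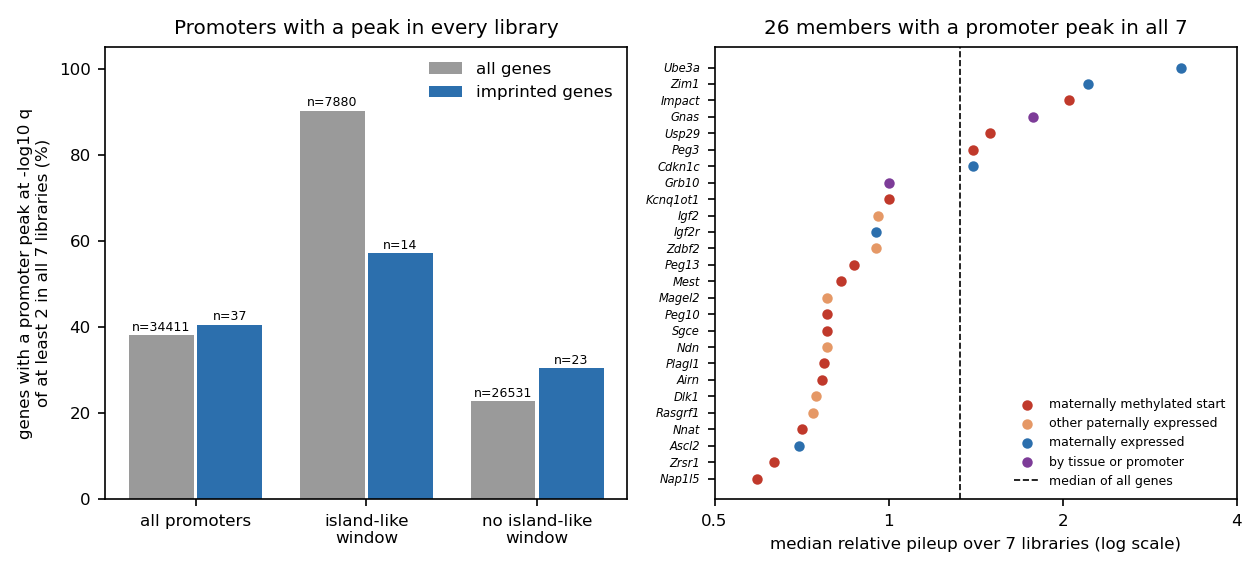
Left, share of genes with a promoter peak at a -log10 q of at least 2 in all 7 libraries, for all genes (grey) and imprinted genes (blue), over all promoters and by whether a window is island-like. Right, median relative pileup over 7 libraries (log axis) of the 26 imprinted genes with a promoter peak in every library, colored by expressed copy, where 7 members lie to the right of the dashed median of all genes (1.33) and 19 to its left.

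H19 (chr7:142575530-142578146, minus strand) gives a long non-coding RNA read from the maternal copy, and Igf2 (chr7:142650768-142666816, minus strand) the insulin-like growth factor 2 read from the paternal copy. The H19 promoter had peaks in 4 libraries, with no peak and 0.583 in GFP+, 0.95 and 0.478 in Tomato+, no peak in GFP- and 0.867 in Tomato-. Only Tomato+ replicate 6 and Tomato- held a strong one. Igf2, over its 6 start windows, had peaks in every library at 1.05 and 0.958 in GFP+, 1.1 and 0.696 in Tomato+, 0.87 and 1.0 in GFP- and 0.767 in Tomato-, and the peak of Tomato+ replicate 8 was the single weak one. The peaks that Igf2 had in all 7 libraries sat at its 2 island-like start windows, whereas 2 of its other windows had no peak and 2 had peaks in 3 libraries or fewer.

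Between the genes lies the H19-Igf2 imprinting control region, chr7:142580248-142582833 in the RefSeq functional elements, which begins 2102 bp upstream of the H19 start. Its 4 CTCF sites are shown because the insulator acts through them. From the farthest to the nearest to H19 they are m1 at chr7:142582026-142582073, m2 at chr7:142581782-142581826, m3 at chr7:142580756-142580803 and m4 at chr7:142580301-142580347, each on the minus strand of GRCm38.p6, with the CTCF core GGNGGCAG in capitals:
CTCF m1: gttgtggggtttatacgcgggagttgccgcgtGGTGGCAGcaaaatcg
CTCF m2: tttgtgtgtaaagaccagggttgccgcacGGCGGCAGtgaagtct
CTCF m3: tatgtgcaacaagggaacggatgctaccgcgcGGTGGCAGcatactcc
CTCF m4: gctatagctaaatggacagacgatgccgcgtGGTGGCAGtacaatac

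TGCCGC, the motif of ZFP57, was found on either strand 1 time in m1, 2 times in m2, 0 times in m3 and 1 time in m4, and in m2 the second match overlaps the CTCF core. Peaks in the control region were found in 5 libraries, with a relative pileup of 0.60 and no peak in GFP+, 0.45 and 0.478 in Tomato+, no peak and 0.50 in GFP-, and 0.567 in Tomato-. None was strong, with the -log10 q running from 0.38 to 1.48. The peaks touched m4 in both Tomato+ libraries, m3 and m1 in Tomato- alone, and m2 in none. No region near H19 held a peak in all 7 libraries, and 14 of its 18 regions were strong in none.

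**Figure D2:**
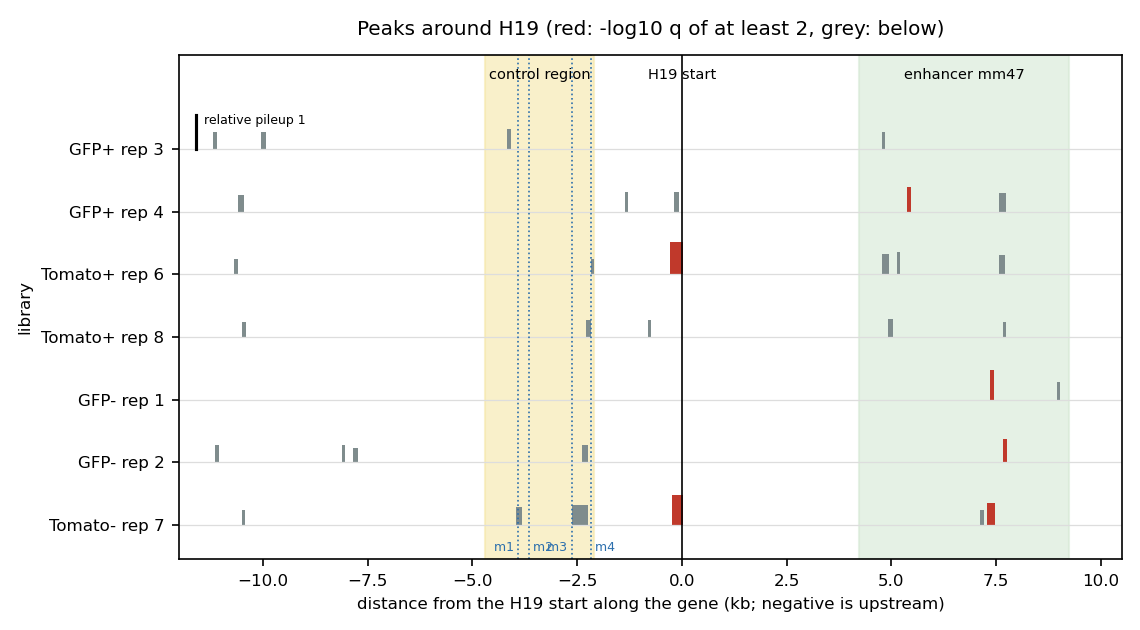
Peaks of each library (rows) by distance from the H19 start in kb along the gene (negative is upstream), where bar height is the relative pileup, red marks a -log10 q of at least 2 and grey a lower one, yellow shading the control region with its CTCF sites m1 to m4 (dotted lines) and green shading the enhancer mm47. No red bar lies in the control region, and red bars lie at the start in Tomato+ replicate 6 and Tomato- and in the enhancer in 4 libraries.

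The enhancers that H19 and Igf2 share lie on the other side of H19. These elements, like the other RefSeq elements and VISTA enhancers below, were picked after peak values had been seen. VISTA enhancer mm50, chr7:142551566-142554813, held peaks in all 7 libraries, with a relative pileup of 0.90 and 0.75 in GFP+, 1.55 and 0.652 in Tomato+, 0.609 and 0.591 in GFP-, and 0.567 in Tomato-. Tomato+ replicate 6 stood highest there and the other Tomato+ library lay among the rest. VISTA enhancer mm47, chr7:142568912-142573912, was at 0.50 and 0.708 in GFP+, 0.65 and 0.522 in Tomato+, 0.87 and 0.682 in GFP-, and 0.633 in Tomato-, and the ranges of GFP+ and Tomato+ overlapped. The strongest region of the cluster that was not a promoter, chr7:142660566-142660937 over exons of Igf2 and its antisense RNA Igf2os, held peaks in 6 libraries with a median of 0.739, at 0.85 and 0.75 in GFP+, no peak and 0.783 in Tomato+, 0.522 and 0.727 in GFP- and 0.50 in Tomato-.

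In the Kcnq1 cluster, the paternally expressed long RNA Kcnq1ot1 (chr7:143213111-143296547, minus strand) starts in the control region inside the potassium channel gene Kcnq1 (chr7:143106877-143427050, plus strand) and silences Cdkn1c, Phlda2, Ascl2 and Kcnq1 itself on the same copy. The Kcnq1ot1 promoter was strong in all 7 libraries, at 0.85 and 0.708 in GFP+, 1.05 and 1.0 in Tomato+, 1.43 and 1.0 in GFP- and 1.43 in Tomato-. GFP- replicate 1 and Tomato- were highest and both GFP+ libraries lowest. Cdkn1c (chr7:143458339-143461059, minus strand), an inhibitor of cyclin-dependent kinases read from the maternal copy, was strong in all 7 too, at 1.25 and 1.17 in GFP+, 1.55 and 1.43 in Tomato+, 1.22 and 1.5 in GFP- and 1.4 in Tomato-. Its lowest value lay above the highest of Ascl2 and Phlda2.

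Kcnq1 had a strong promoter peak in 6 libraries, at 0.80 and 0.708 in GFP+, 0.75 and no peak in Tomato+, 0.826 and 0.864 in GFP- and 0.633 in Tomato-. Phlda2 (chr7:143501545-143503145, minus strand), which limits placental growth, had no peak and 0.667 in GFP+, 0.60 and 0.783 in Tomato+, 0.696 and 1.05 in GFP- and 0.80 in Tomato- and strong in 3 libraries. Ascl2 (chr7:142966822-142969264, minus strand), a factor of the trophoblast, was at 0.55 and 0.75 in GFP+, 0.70 and 0.826 in Tomato+, 0.783 and 0.545 in GFP- and 0.667 in Tomato- and strong in 5, with the groups overlapping. Outside promoters the strongest region was chr7:143123883-143124842 in an intron of Kcnq1, at 0.80 and 0.875 in GFP+, 1.45 and 0.783 in Tomato+, 1.0 and 1.09 in GFP- and 0.667 in Tomato-, highest in Tomato+ replicate 6, and a region over the exons of Ascl2, chr7:142967494-142968868, was at 0.70 and 0.958 in GFP+, 0.80 and 0.783 in Tomato+, 0.696 and 1.05 in GFP- and 0.933 in Tomato-.

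The 200 bp upstream of the Kcnq1ot1 start, chr7:143296548-143296747 on the minus strand of GRCm38.p6, are shown because the cluster is silenced from this promoter and because they hold no match of TGCCGC, the motif of ZFP57. In capitals is CCAAT, the motif of NF-Y, which was looked for after the sequence had been seen:
Kcnq1ot1 upstream: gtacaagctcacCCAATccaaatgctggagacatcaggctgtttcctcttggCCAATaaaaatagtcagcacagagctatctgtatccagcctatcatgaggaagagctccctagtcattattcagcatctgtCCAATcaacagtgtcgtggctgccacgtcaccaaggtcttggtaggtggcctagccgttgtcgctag

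It was found 3 times there on either strand. Of the 74488 RefSeq start sites, 27.5% had at least 1 match in the 200 bp upstream and 1.73% had at least 3.

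In the Peg3 cluster, the paternally expressed zinc finger gene Peg3 (chr7:6703892-6730462, minus strand) and Usp29 (chr7:6730559-6967220, plus strand), a relative of ubiquitin peptidases, leave in opposite directions from 1 control region, and Zim1 (chr7:6674444-6696540, minus strand), a maternally expressed zinc finger gene, lies downstream of Peg3. All 3 were strong in all 7 libraries. Peg3, over its 3 start windows, was at 1.2 and 1.62 in GFP+, 1.4 and 1.26 in Tomato+, 1.48 and 1.73 in GFP- and 1.4 in Tomato-. The GFP- values came from the window of a start inside the gene, at 6726483. At the starts next to Usp29, 6730419 and 6730462, GFP- was at 1.39 and 1.14, and the other libraries had the values given. Usp29 was at 1.6 and 1.75 in GFP+, 1.5 and 1.35 in Tomato+, 1.39 and 1.5 in GFP- and 1.7 in Tomato-, with its summits at a median of -933 bp from its start, in an intron of Peg3. Zim1 was higher, at 2.35 and 2.21 in GFP+, 1.7 and 1.43 in Tomato+, 2.65 and 2.45 in GFP- and 1.73 in Tomato-, and its summits lay within 18 bp of the start in every library. These were the highest promoter values of the cluster in each of the 7 libraries, by a small margin over Usp29 in Tomato+ replicate 8 and Tomato-. At Zim1 the 4 libraries of the Hoxb1-GFP line, at 2.21 to 2.65, did not overlap the 3 of the Mef2c-Cre line, at 1.43 to 1.73.

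Usp29 and Mest had the most TGCCGC matches in a promoter window among the genes that start in a maternally methylated region. The highest number of matches in 1 window, on either strand, was 6 at Mest, 5 at Usp29 and 3 at Nnat, and there were 0 at Kcnq1ot1, Airn, Peg3 and Zrsr1. A window ends 100 bp downstream of its start, so that a 0 describes the window and not the whole control region. Peg3 with 0 and Usp29 with 5 leave from the same control region. The motif was present in 58 of 115 member windows (50.4%), beside 23.9% of all 74488 windows, and in island-like windows in 34 of 51 beside 53.5%. YY1 sites (GCCATNTT) were in 27.0% of member windows beside 19% of all, and the CTCF core was in 38.3% beside 37.6%. These shares count windows, not genes, and windows of 1 gene often overlap, so that the same match is counted several times. The 5 windows of Zim1, for example, belong to starts from 6696432 to 6696540 and each hold 1 TGCCGC match. Whether the shares hold with 1 window per gene was not tested. The richest 200 bp in the windows of Usp29, chr7:6729973-6730172 on the plus strand inside a Peg3 intron, and the 200 bp upstream of the second start of Mest, chr6:30737795-30737994 on the plus strand, are shown to let the motif be seen at these genes, with TGCCGC on either strand in capitals:
Usp29 and Peg3: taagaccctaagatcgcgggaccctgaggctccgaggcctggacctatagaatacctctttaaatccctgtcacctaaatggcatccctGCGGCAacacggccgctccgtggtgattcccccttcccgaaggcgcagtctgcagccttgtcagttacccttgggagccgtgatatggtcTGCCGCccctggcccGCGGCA
Mest upstream: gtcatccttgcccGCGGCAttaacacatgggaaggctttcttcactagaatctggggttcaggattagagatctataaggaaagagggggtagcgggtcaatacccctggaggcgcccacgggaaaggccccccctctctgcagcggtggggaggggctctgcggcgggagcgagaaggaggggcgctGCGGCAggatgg

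Snrpn (chr7:59982495-60450177, minus strand), in the cluster of Prader-Willi and Angelman syndromes, codes for a splicing protein and starts in the maternally methylated control region. Its peaks were low, at 0.50 and 0.542 in GFP+, no peak and 0.609 in Tomato+, 0.783 and 0.409 in GFP- and 0.50 in Tomato- over its 6 start windows, strong in 5 libraries. Tomato+ replicate 6 had none. The 0.609 came from a start at 60450177 and the 0.409 from one at 60170956. At the start at 60005199, which gave the other values, Tomato+ replicate 8 was at 0.391 and GFP- replicate 2 at 0.318. Peaks at this start were strong in 4 libraries. A region just downstream of this start, chr7:60003843-60004803 in an intron of Snrpn, was strong in all 7 libraries. It was at 0.70 and 0.542 in GFP+, 0.65 and 0.565 in Tomato+, 0.696 and 0.864 in GFP- and 0.833 in Tomato-. With a window of 500 bp on either side of the starts Snrpn was strong in 6 libraries. The median of 0.521 over the 6 windows was under that of each of the 26 members with a promoter peak in all 7 libraries. Ube3a (chr7:59228750-59310837, plus strand), the ubiquitin ligase of the same cluster that is imprinted in neurons and read from both copies in most other cells, was the highest promoter of all members, at 3.6 and 3.21 in GFP+, 2.55 and 3.0 in Tomato+, 3.22 and 2.41 in GFP- and 3.6 in Tomato-. Its lowest library lay above the highest of every other member of the cluster.

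Ndn (chr7:62348277-62349928, plus strand), Magel2 (chr7:62376979-62381640, plus strand) and Mkrn3 (chr7:62417593-62420153, minus strand) are paternally expressed genes of the same cluster with a single RefSeq start each, where Ndn and Magel2 code for members of the MAGE family and Mkrn3 for a ring finger protein that restrains the onset of puberty. Ndn was strong in all 7 libraries at 1.15 and 0.75 in GFP+, 0.70 and 0.783 in Tomato+, 0.783 and 0.955 in GFP- and 0.80 in Tomato-. Magel2 was strong in all 7 at 0.85 and 0.875 in GFP+, 0.80 and 0.696 in Tomato+, 0.783 and 0.727 in GFP- and 0.567 in Tomato-. Both lay below the typical shared region in every library, apart from 1.15 at Ndn in GFP+ replicate 3. Mkrn3 had no peak and 0.625 in GFP+, no peak and 0.304 in Tomato+, 0.87 and 0.50 in GFP- and 0.433 in Tomato-, strong in 2 libraries. Its peaks spread over a wider stretch, and with a window of 500 bp on either side of the start Mkrn3 was strong in 6 libraries. The strongest region outside promoters was a stretch of 186 bp in an intron of Ube3a, chr7:59262309-59262494, at 0.80 and 0.583 in GFP+, 0.75 and 1.09 in Tomato+, 0.696 and 0.636 in GFP- and 0.967 in Tomato-.

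In the Dlk1-Meg3 cluster 1 of 5 promoters, that of Dlk1, had a peak in all 7 libraries. Dlk1 (chr12:109452485-109463336, plus strand), a transmembrane protein related to Notch ligands and read from the paternal copy, was at 1.0 and 0.75 in GFP+, 0.80 and 0.652 in Tomato+, 0.913 and 0.727 in GFP- and 0.60 in Tomato-, strong in 4 libraries. Meg3 (chr12:109540996-109571729, plus strand), the maternally expressed long RNA, was at 0.60 and 0.458 in GFP+, no peak and 0.609 in Tomato+, no peak and 0.636 in GFP- and 0.533 in Tomato-, strong in 3, with a median peak length of 76.0 bp beside a shortest deposited length of 73 bp. Rtl1 (chr12:109564900-109604418, minus strand), a gene derived from a retrotransposon and read from the paternal copy, had no peak in GFP+, 0.50 and 0.565 in Tomato+, no peak in GFP- and no peak in Tomato-. Rtl1 was strong in Tomato+ replicate 8 alone, and in no library with curated start sites only.

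Rian (chr12:109603945-109661716, plus strand) and Mirg (chr12:109734981-109749458, plus strand), maternally expressed RNAs that host small nucleolar RNAs and microRNAs, had weak peaks in few libraries. Rian had a single one, at 0.348 in GFP- replicate 1. Mirg had no peak and 0.375 in GFP+, 0.45 and no peak in Tomato+, no peak in GFP- and no peak in Tomato-. The highest region of the cluster lay 210 bp past the end of Mirg, at chr12:109749668-109750317, and was strong in every library, at 1.1 and 0.667 in GFP+, 1.3 and 1.26 in Tomato+, 0.826 and 0.909 in GFP- and 1.07 in Tomato-. A region 6167 bp before Dlk1, chr12:109445591-109446318, was at 0.80 and 0.625 in GFP+, 0.95 and 0.609 in Tomato+, 0.826 and 0.773 in GFP- and 0.90 in Tomato-. VISTA enhancer mm799 at chr12:109507924-109510969, upstream of Meg3, was at 0.90 and 0.458 in GFP+, 0.60 and no peak in Tomato+, 0.696 and 0.591 in GFP-, and no peak in Tomato-.

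In the Igf2r cluster, Airn (chr17:12741311-12859884, plus strand), a paternally expressed long RNA that starts inside Igf2r, runs antisense to it and silences it. Igf2r (chr17:12682406-12769706, minus strand), the receptor that clears IGF2, is read from the maternal copy, as are, in the placenta, the organic cation transporters Slc22a2 (chr17:12584189-12628489, plus strand) and Slc22a3 (chr17:12419972-12507704, minus strand). Igf2r was strong in all 7 libraries at 0.95 and 0.917 in GFP+, 0.80 and 1.22 in Tomato+, 1.0 and 0.955 in GFP- and 0.867 in Tomato-. Airn was strong in all 7 at 0.80 and 0.625 in GFP+, 0.95 and 0.565 in Tomato+, 0.957 and 0.545 in GFP- and 0.767 in Tomato-. At both the ranges of GFP+ and Tomato+ overlapped. The transporters stood apart, with Slc22a3 with no peak and 0.458 in GFP+, no peak and 0.478 in Tomato+, 0.522 and no peak in GFP- and 0.567 in Tomato- and strong in Tomato- alone, and Slc22a2 with no peak and 0.375 in GFP+, no peak in Tomato+, no peak in GFP- and 0.30 in Tomato- and strong in none.

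Within Airn, VISTA enhancer mm89 at chr17:12789717-12793070 was at 1.0 and 0.792 in GFP+, 1.75 and 0.565 in Tomato+, 0.478 and 0.455 in GFP-, and 0.50 in Tomato-. All 4 positive libraries lay above all 3 negative ones. The -log10 q was 7.64 and 6.54 in GFP+, 14.6 and 3.54 in Tomato+, 1.67 and 1.57 in GFP-, and 3.34 in Tomato-. The largest region there, chr17:12790408-12791081, had no peak in Tomato+ replicate 8 and was therefore not part of the fit over all 7 libraries. With that library left out the region was higher in the remaining Tomato+ library than in Tomato- by 1.83 on the log2 scale. This compares 1 library with 1. The region entered that fit only because the Tomato+ library without a peak was left out, so that the value does not describe Tomato+ cells as a group. Regions with a peak in at least 2 libraries were also tested, with the library's lowest pileup put in where no peak was listed. In that fit, which keeps Tomato+ replicate 8, 0 of 484 member regions were called in Tomato+ against Tomato-. The count was also 0 in GFP+ against GFP- and in GFP+ against Tomato+.

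Peg10 (chr6:4747306-4760517, plus strand), a placental gene derived from a retrotransposon, and Sgce (chr6:4674350-4747204, minus strand), the epsilon subunit of the sarcoglycan complex, share 1 promoter from which they leave in opposite directions, so that a single peak counts for both, at 0.60 and 0.708 in GFP+, 0.90 and 0.913 in Tomato+, 0.783 and 1.23 in GFP- and 0.70 in Tomato-. The peak was weak in GFP+ replicate 3 and strong in the other 6 libraries. A region in the Peg10 intron, chr6:4748679-4749492, was higher, at 1.15 and 1.79 in GFP+, 2.15 and 1.39 in Tomato+, 1.74 and 1.45 in GFP- and 2.0 in Tomato-. The highest region near any member outside promoters lay 1627 bp past the end of Peg10, at chr6:4762144-4762616, at 3.35 and 2.38 in GFP+, 4.25 and 2.74 in Tomato+, 3.35 and 2.86 in GFP- and 3.27 in Tomato-.

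Among the genes outside clusters, Gnas (chr2:174284320-174346744, plus strand), which codes for the alpha subunit of the stimulatory G protein, had the highest promoter after that of Impact, at 1.75 and 1.92 in GFP+, 2.7 and 2.48 in Tomato+, 1.78 and 1.59 in GFP- and 1.53 in Tomato- over its 14 start windows. The values came from the promoter of the main product, whose 2 windows were strong in all 7 libraries. Both Tomato+ libraries were highest and Tomato- was lowest. Of the alternative starts, the windows of the maternally expressed Nesp55 product had peaks in 5 to 7 libraries, the windows of exon 1A, just upstream of the main start, had peaks in all 7 with 5 strong (0.65 to 1.12), and the 3 windows of the paternally expressed XL alpha s product had a peak in 1 library each. The strongest Gnas region outside RefSeq windows, chr2:174295074-174295821, holds 2 of the start sites that GENCODE gives for Nespas, the antisense RNA of the locus, at positions 174295389 and 174295436 on chromosome 2. It was at 0.80 and 1.04 in GFP+, 1.6 and 1.7 in Tomato+, 1.22 and 1.45 in GFP- and 1.67 in Tomato-. Nespas was on the fixed list of neighbors and has no entry in the RefSeq set used for the promoters.

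Impact, an inhibitor of the stress kinase GCN2, was at 2.1 and 1.79 in GFP+, 1.8 and 2.26 in Tomato+, 1.96 and 2.05 in GFP- and 2.4 in Tomato-, with the longest promoter peaks of all members, 1423 bp in the median. Grb10 (chr11:11930499-12037428, minus strand), an adaptor that restrains insulin and IGF signaling, was strong in all 7 libraries at 0.70 and 0.917 in GFP+, 1.0 and 1.17 in Tomato+, 1.09 and 0.818 in GFP- and 1.13 in Tomato-. Zdbf2 (chr1:63200358-63314576, plus strand), a paternally expressed gene with a DBF-type zinc finger, was strong in all 7 at 0.95 and 1.04 in GFP+, 0.85 and 0.913 in Tomato+, 1.13 and 1.0 in GFP- and 0.70 in Tomato-. Impact lay above the typical shared region in every library, and Grb10 and Zdbf2 spread around it. At Grb10 both Tomato+ libraries lay above both GFP+ libraries and at Zdbf2 below them, in neither case with an unadjusted p under 0.05 in the fit over all regions. In an intron of Grb10, VISTA enhancer mm178, chr11:11961856-11962621, was at 0.50 and no peak in GFP+, 1.2 and no peak in Tomato+, 0.565 and 0.409 in GFP-, and 0.467 in Tomato-, and VISTA enhancer mm154 held no peak.

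Mest (chr6:30733506-30748466, plus strand), a protein with an alpha/beta hydrolase fold read from the paternal copy, was strong in all 7 libraries at 1.1 and 0.917 in GFP+, 0.80 and 0.826 in Tomato+, 0.783 and 0.773 in GFP- and 0.933 in Tomato-. Plagl1 (chr10:13090832-13131694, plus strand), a zinc finger factor that regulates other imprinted genes, was at 0.95 and 0.958 in GFP+, 0.75 and 0.87 in Tomato+, 0.478 and 0.773 in GFP- and 0.667 in Tomato- and strong in 6. Rasgrf1 (chr9:89909508-90026979, plus strand), an exchange factor for Ras, was at 0.75 and 0.625 in GFP+, 0.75 and 0.739 in Tomato+, 0.913 and 0.727 in GFP- and 0.70 in Tomato- and strong in 6. In GFP- replicate 1 Plagl1 was at its lowest and Rasgrf1 at its highest.

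Several paternally expressed genes sit inside an intron of another gene, with their start in a maternally methylated region. Peg13 (chr15:72805602-72810324, minus strand), a long RNA inside Trappc9, was at 0.75 and 0.875 in GFP+, 0.55 and 1.04 in Tomato+, 0.87 and 0.727 in GFP- and 1.0 in Tomato- and strong in 6 libraries. Nnat (chr2:157560078-157562525, plus strand), a small membrane protein inside Blcap, was at 0.75 and 0.708 in GFP+, 0.60 and 0.957 in Tomato+, 0.913 and 0.545 in GFP- and 0.50 in Tomato- and strong in 4. Nap1l5 (chr6:58905233-58907126, minus strand), a relative of nucleosome assembly proteins inside Herc3, was at 0.60 and 0.583 in GFP+, 0.60 and 0.435 in Tomato+, 0.87 and 0.591 in GFP- and 0.467 in Tomato- and strong in 6. The promoters of these host genes, which the RefSeq set treats like any other, were compared after the values had been seen. Trappc9 ran from 1.83 to 2.6 beside 0.55 to 1.04 for Peg13, Herc3 from 1.13 to 2.14 beside 0.435 to 0.87 for Nap1l5, and Commd1 from 1.2 to 1.83 beside 0.478 to 0.875 for Zrsr1. Each of these 3 hosts was higher than the gene nested in it in all 7 libraries, whereas Blcap, at 0.60 to 1.13, was higher than Nnat in 5.

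Zrsr1 (chr11:22972005-22976496, plus strand), a retrotransposed relative of a splicing factor inside Commd1, was the only imprinted promoter with a strong peak in both GFP+ and in neither Tomato+ library, at 0.85 and 0.875 in GFP+, 0.55 and 0.478 in Tomato+, 0.609 and 0.636 in GFP- and 0.633 in Tomato-. The -log10 q was 6.12 and 7.2 in GFP+, 1.78 and 1.98 in Tomato+, 2.91 and 3.45 in GFP-, and 4.37 in Tomato-. The Tomato+ peaks thus lay just below the threshold of 2, and a peak at any threshold was present in all 7 libraries. The GFP+ values did not overlap those of the other 5 libraries. Among peaks at any threshold the 1 member that differed was Rtl1, with peaks in both Tomato+ and neither GFP+ library. With a window of 500 bp on either side of the start 0 members differed, and with the summit required in the window 3 did.

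Whether promoters differed between populations was asked first by presence. Strong peaks in both GFP+ and no Tomato+ library were found at 1 of 37 imprinted promoters (background 0.695% of all genes) and the reverse at 0 (0.471%). Against GFP-, strong peaks in both GFP+ and no GFP- library were found at 0 (0.805%) and the reverse at 0 (0.439%). Against the single Tomato- library, strong peaks in both Tomato+ libraries and not in Tomato- were found at 0 (0.872%), and in Tomato- and neither Tomato+ library at 2, Slc22a3 and Zrsr1 (2.85%). Counts of 0 to 2 leave little to set against these backgrounds. With 2 libraries against 2 an exact permutation test cannot go below a two-sided p of 0.333, so that none was run on these counts. Leaving out 1 of the 4 positive libraries gave more promoters that differed between GFP+ and Tomato+ in either direction, 3 (8.11%, beside 3.74% of all genes) without GFP+ replicate 3, 4 (10.8%, beside 3.8%) without GFP+ replicate 4, 5 (13.5%, beside 4.48%) without Tomato+ replicate 8 and 8 (21.6%, beside 3.76%) without Tomato+ replicate 6. With all libraries this count was 1 (2.7%), beside 1.17% of all genes.

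Of the 1523 merged regions near imprinted genes, 64 (4.2%) held a peak in all 7 libraries, beside 3.95% of all regions, and 1039 (68.2%) were found in 1 library, beside 72.3% of all. Of the 64, 34 overlapped a promoter window. The Snrpn cluster had 9 such regions among 51, the Kcnq1 and Peg3 clusters had 7 each among 315 and 151, the Igf2r cluster had 5 among 262, Peg10-Sgce 4 among 47, Dlk1-Meg3 3 among 166 and H19-Igf2 2 among 57, and the genes outside clusters had 27 among 474. Strong peaks in all 7 libraries were found in 40 of the 1523 (2.63%, beside 2.69% of all regions), and 405 (26.6%, beside 23.4%) had a strong peak in at least 1 library.

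By presence among the 405 regions, strong peaks in both GFP+ and no Tomato+ library were found in 8 (1.98%, background 1.55%) and the reverse in 2 (0.494%, background 1.27%). Of the 8, 2 had no peak at all outside GFP+, a peak of 109 bp over an exon of Plagl1, chr10:13127212-13127320, at 0.50 and 0.542, and a peak in an intron of Kcnq1, chr7:143389865-143390053, at 0.55 and 0.50. An intron region of Grb10, chr11:11942521-11942982, was at 0.60 and 0.542 in GFP+, no peak in Tomato+, 0.652 and 0.591 in GFP- and no peak in Tomato-, present in the whole Hoxb1-GFP line and absent from the whole Mef2c-Cre line. Of the others, 3 lay in introns of Usp29, at chr7:6774063-6774336, chr7:6777614-6778002 and chr7:6849591-6849841, and had peaks of 0.45 to 0.70 in Tomato+ replicate 6 that were not strong and none in Tomato+ replicate 8. The region chr7:6777614-6778002 was the highest of them, at 0.90 and 0.75 in GFP+, 0.55 and no peak in Tomato+, no peak and 0.409 in GFP- and no peak in Tomato-. A region in a Gnas intron, chr2:174305640-174305961, was at 0.55 and 0.542 in GFP+, 0.45 and no peak in Tomato+, 0.739 and 0.955 in GFP- and no peak in Tomato-, so that GFP- stood above GFP+ there. The last was the Snrpn start, chr7:60004931-60005223, at 0.50 and 0.542 in GFP+, no peak and 0.391 in Tomato+, 0.783 and 0.318 in GFP- and 0.50 in Tomato-. The region next to it, chr7:60003843-60004803, was strong in all 7 libraries, at 0.70 and 0.542 in GFP+ and 0.65 and 0.565 in Tomato+. GFP+ minus Tomato+ was 0.02 there on the log2 scale (interval -0.61 to 0.65, adjusted p = 0.987, limma). Whether the difference in presence at the Snrpn start depends on where merged regions were split was not tested.

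In the reverse direction, a region 1078 bp past Gnas, chr2:174347822-174348020, was absent from GFP+ alone, with 0.95 and 0.565 in Tomato+, 0.565 and 0.591 in GFP- and 0.60 in Tomato-. A region in an intron of Usp29, chr7:6860679-6861081, was at 0.40 and 0.375 in GFP+, 0.60 and 0.522 in Tomato+, no peak and 0.409 in GFP- and 0.533 in Tomato-, with peaks in GFP+ that were not strong.

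Between GFP+ and GFP- the same count was 9 (2.22%, background 1.61%) and 3 in the reverse direction (0.741%, background 1.48%). They lay at Plagl1, Slc22a3, Airn, Gnas, Kcnq1 and, 4 of them, in introns of Usp29. The Gnas region, chr2:174315472-174315672, was absent from GFP- alone, at 0.55 and 0.75 in GFP+, 0.75 and 0.391 in Tomato+, no peak in GFP- and 0.567 in Tomato-. The Slc22a3 region, chr17:12428424-12428763, was at 0.50 and 0.625 in GFP+, 0.90 and no peak in Tomato+, 0.391 and no peak in GFP- and 0.40 in Tomato-. Higher in GFP- was a region 1099 bp past Kcnq1, chr7:143428149-143429032, at 0.55 and no peak in GFP+, 0.35 and 0.87 in Tomato+, 1.35 and 1.05 in GFP- and 0.633 in Tomato-. Another in an intron of Grb10, chr11:11941216-11941845, was found in the 3 negative libraries alone, at 0.826 and 0.727 in GFP- and 0.533 in Tomato-. The last lay in an intron of Rian, chr12:109640621-109641097, at 0.35 and no peak in GFP+, no peak and 0.435 in Tomato+, 0.826 and 0.773 in GFP- and no peak in Tomato-. Strong peaks in both Tomato+ libraries and not in Tomato- were found in 5 (1.23%, background 1.5%), in Igf2r, Gnas (2) and Usp29 (2), and the reverse, which needs 1 library only, in 48 (11.9%, background 14.4%). The Usp29 region chr7:6896994-6897395 had the highest peak of the 5, at 0.95 and 0.875 in GFP+, 1.6 and 0.739 in Tomato+, 0.435 and 0.50 in GFP- and no peak in Tomato-, with all 4 positive libraries above the 3 negative ones. The Igf2r region, chr17:12724014-12724377, had no peak and 0.542 in GFP+, 0.80 and 0.478 in Tomato+, no peak in GFP- and no peak in Tomato-.

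The 64 regions with a peak in all 7 libraries were then tested among all 34769 such regions by limma, and none was called at an adjusted p of 0.1 in any comparison. For GFP+ against Tomato+, where 0.771% of all regions were called higher and 0.141% lower, the smallest adjusted p of a member region was 0.179, and 7 of 64 (10.9%) had an unadjusted p under 0.05 beside 10.4% of all. For GFP+ against GFP- 0.0% of all regions were called, and 3 member regions (4.69%) were under 0.05 beside 6.2% of all. For Tomato+ against Tomato-, where the single Tomato- library was assumed to vary like the other groups, 0.00288% were called, which is 1 region, and 3 member regions (4.69%) were under 0.05 beside 4.42% of all. For the difference between the lines of positive minus negative, which rests on the same assumption, 0.0% were called, and 0 member regions were under 0.05 beside 4.67% of all. The median 95% interval of a member region was ± 0.624 on the log2 scale for the first 2 comparisons, ± 0.764 for the third and ± 0.986 for the difference between lines.

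**Figure D3:**
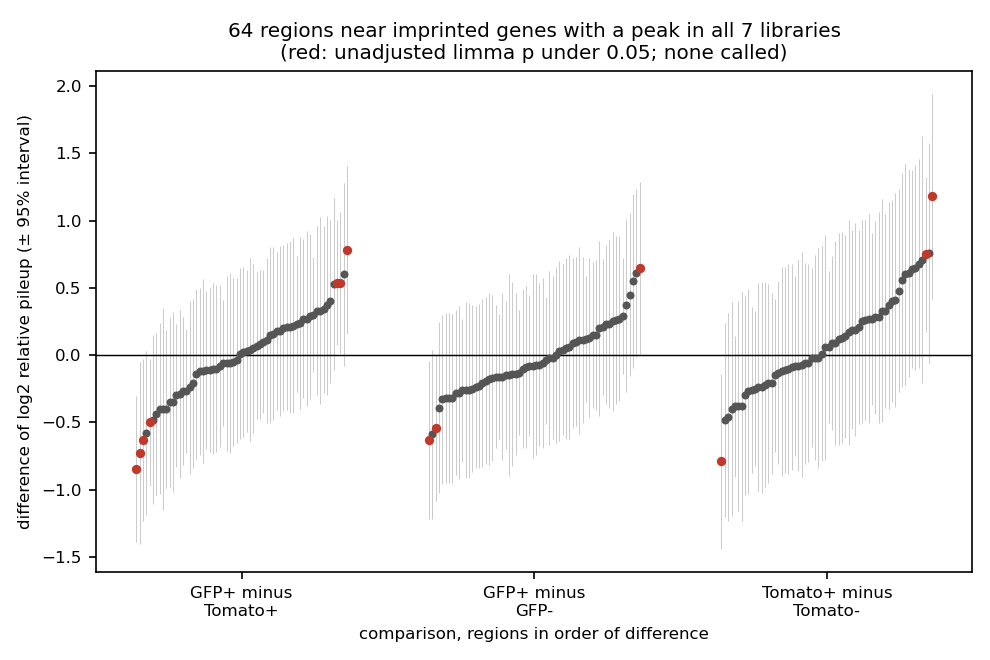
Difference of log2 relative pileup with its 95% interval (limma) for the 64 regions near imprinted genes with a peak in all 7 libraries, in order of size within each of 3 comparisons, where red marks an unadjusted p under 0.05. For GFP+ minus Tomato+ the values run from -0.85 to 0.78, and most intervals span 0.

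The lowest unadjusted p for GFP+ against Tomato+ was at the Gnas region with the Nespas starts, where both Tomato+ libraries lay above both GFP+ ones and the difference was -0.85 (95% interval -1.39 to -0.31, adjusted p = 0.179, limma). GFP- was between, at 1.22 and 1.45, and Tomato- at 1.67 lay between the Tomato+ libraries. With the pileup scaled to the estimated number of tags only, this region alone was called, at -1.03 ± 0.27 (SE) and an adjusted p of 0.0923 (limma). The main Gnas promoter went the same way by -0.50 (interval -0.97 to -0.03, adjusted p = 0.448), and against Tomato- it was 0.75 higher in Tomato+ (interval 0.18 to 1.33, adjusted p = 0.998). The Zim1 promoter was 0.54 higher in GFP+ than in Tomato+ (interval 0.08 to 1.01, adjusted p = 0.38), and 0.35 higher without Tomato+ replicate 8. An intron region of Snrpn, chr7:60244261-60244554, at 0.95 and 0.875 in GFP+, 0.50 and 0.565 in Tomato+, 0.696 and 0.864 in GFP- and 0.567 in Tomato-, was 0.78 higher (interval 0.15 to 1.4, adjusted p = 0.338). The remaining 3 lay in introns of Zdbf2 (-0.73) and Kcnq1 (-0.63) and past Slc22a2 (0.54). The Zdbf2 value was -0.37 without Tomato+ replicate 6, -0.46 without GFP+ replicate 4, -1.13 without GFP+ replicate 3 and -1.22 without Tomato+ replicate 8.

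Against GFP-, the promoters of Kcnq1ot1 and Plagl1 had the lowest unadjusted p in GFP+. Kcnq1ot1 differed by -0.63 (interval -1.22 to -0.04, adjusted p = 0.79, limma), and Plagl1 was higher by 0.65 (interval 0.01 to 1.29, adjusted p = 0.803). In both, the GFP+ libraries did not overlap the GFP- libraries. Without GFP- replicate 1 the differences were -0.37 at Kcnq1ot1 and 0.30 at Plagl1, and without GFP- replicate 2 they were -0.89 and 1.0. The Gnas region with the Nespas starts differed by -0.54 (adjusted p = 0.803). For Tomato+ against Tomato-, a region over an exon of Usp29, chr7:6913572-6914095, was at 1.15 and 0.958 in GFP+, 1.05 and 0.783 in Tomato+, 0.696 and 0.682 in GFP- and 0.40 in Tomato- and differed by 1.18 (interval 0.42 to 1.94, adjusted p = 0.998), or by 0.65 with fold enrichment in place of pileup. It was also higher in both GFP+ libraries than in both GFP- libraries. A region in an intron of Peg3, chr7:6727302-6729074, was at 1.15 and 1.92 in GFP+, 1.3 and 1.48 in Tomato+, 1.83 and 1.73 in GFP- and 2.4 in Tomato-, with a difference of -0.79 (adjusted p = 0.998).

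Some regions near imprinted genes were tandem repeats. Repetition was measured as the share of bases within 300 bp around the summit that equal the base a fixed shift further on, at the best shift of 5 to 100 bp, and a region counted as repeated at 60% or more. Of the 64 regions 11 (17.2%) were repeated, beside 8.03% of all 34769. They made up 2 of the 34 over promoter windows (5.88%) and 9 of the other 30. The 2 were windows of Igf2 (91.9%) and Impact (62.4%). This measure was chosen after the sequences had been seen, and the part of tag placement in repeats in these heights was not tested.

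**Figure D4:**
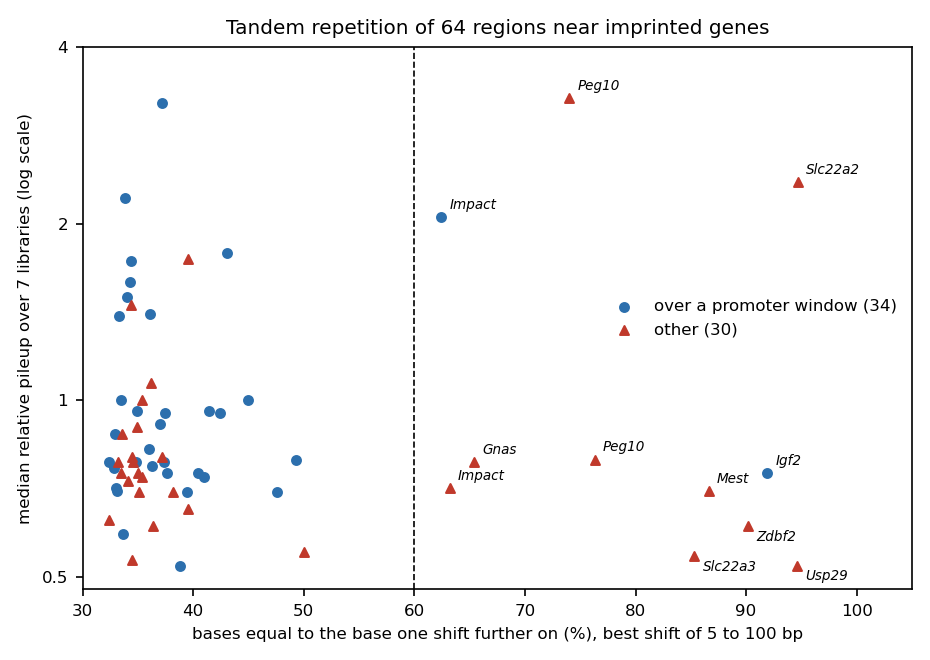
Share of bases equal to the base a fixed shift further on (x axis, %) against the median relative pileup over 7 libraries (y axis, log scale) of the 64 regions, with promoter regions as blue circles and others as red triangles. The dashed line marks 60%, to the right of which lie 11 regions, among them those past Peg10 (3.27) and past Slc22a2 (2.35).

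The 2 highest regions outside promoters were both repeated, and they are shown with another, 6113 bp before Mest, because each is built of copies of a short unit. They lie at chr6:4762322-4762521 past Peg10 (best shift 19 bp), at chr17:12636353-12636552 past Slc22a2 (93 bp) and at chr6:30727122-30727321 before Mest (38 bp), all on the plus strand of GRCm38.p6. Capitals mark the 10 bases that recur most often, 7, 6 and 5 times:
Peg10 repeat: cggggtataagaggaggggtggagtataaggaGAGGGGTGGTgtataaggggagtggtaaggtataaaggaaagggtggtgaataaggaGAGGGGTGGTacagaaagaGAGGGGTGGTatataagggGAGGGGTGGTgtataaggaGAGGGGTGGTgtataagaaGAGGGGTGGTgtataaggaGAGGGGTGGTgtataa
Slc22a2 repeat: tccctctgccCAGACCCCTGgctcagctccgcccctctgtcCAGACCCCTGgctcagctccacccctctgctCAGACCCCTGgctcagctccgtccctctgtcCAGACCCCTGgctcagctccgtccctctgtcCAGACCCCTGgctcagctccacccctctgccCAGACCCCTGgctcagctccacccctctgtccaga
Mest repeat: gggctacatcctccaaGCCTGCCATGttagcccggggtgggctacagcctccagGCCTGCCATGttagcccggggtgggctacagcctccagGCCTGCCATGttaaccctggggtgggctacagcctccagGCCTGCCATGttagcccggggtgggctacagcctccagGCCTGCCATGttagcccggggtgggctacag

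Past Slc22a2 the region chr17:12635957-12637622 was at 2.35 and 2.58 in GFP+, 2.35 and 1.22 in Tomato+, 2.61 and 2.59 in GFP- and 1.4 in Tomato-. Tomato+ replicate 8 and Tomato- stood low and the 5 other libraries within 2.35 to 2.61. GFP+ was 0.54 higher than Tomato+ (interval 0.02 to 1.07, adjusted p = 0.458, limma), and 1 library decided this value, which was 0.95 with an adjusted p of 0.067 without Tomato+ replicate 6 and -0.01 without Tomato+ replicate 8. The region before Mest, chr6:30727046-30727393, was at 0.55 and 0.958 in GFP+, 0.95 and 0.652 in Tomato+, 1.0 and 0.636 in GFP- and 0.70 in Tomato-. Its 300 bp held 7 YY1 matches, and the repeat unit shown above holds the match GCCATGTT. At least 1 YY1 match was found in 6 of the 64 regions (9.38%, beside 8.68% of all). ZFP57 matches were found in 19 of the 64 regions (29.7%, beside 15.4% of all), 15 of them over promoters, and CTCF matches in 14 (21.9%, beside 16.5%).

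Of 16 listed genes that set and keep imprints, 14 had promoters strong in all 7 libraries, among them Zfp57 (0.60 to 1.09), Trim28 (1.85 to 2.65), Dnmt1 (1.48 to 2.5), Uhrf1, Ctcf, Yy1, Smchd1 (2.48 to 3.42) and Tet1 to Tet3. Dnmt3l, a cofactor of methylation in germ cells, was strong in GFP+ replicate 4 alone, and Dppa3, which guards the maternal genome in the egg, had 1 weak peak, at 0.30 in Tomato+ replicate 6. Of the 21 neighbors and host genes listed, 20 were in the RefSeq set and 13 were strong in all 7 libraries, whereas Ins2 and Nctc1 were strong in none.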

How the data were processed

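Open chromatin was measured by ATAC-seq in 7 libraries of 10000 sorted cells each, grouped by the deposited labels as GFP+ (2), GFP- (2), Tomato+ (2) and Tomato- (1). According to the methods, the authors aligned paired reads to GRCm38 with SNAP, removed duplicates, improper pairs and blacklisted regions, and called peaks in each library with MACS2 2.1.1. The 1 list with a header gives a p limit of 0.01, tags shifted by 37 bp and extended to 73 bp, duplicates kept at that step, and no control sample. Its run name holds the letters YFP, and the Tomato+ label was followed.

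As deposited by the authors, pileup is the coverage of extended tags at the summit, not scaled to depth. The authors' fold enrichment is the ratio of that pileup to a local background. The -log10 p-value and -log10 q-value were deposited by the authors from MACS2 within each library. Depth is given by the tags, 52340120 to 93074895 per library. No counts over shared regions were used, so that intervals rest on the spread between libraries, and DiffBind, used in the methods, was not run.

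Rows of 1 peak with several summits were joined and the highest summit was kept. Peaks were set against RefSeq annotation of GRCm38.p6. Peaks sharing 1 bp were merged. Log2 relative pileups were fitted by limma 3.58.1 (statmod 1.5.0, R 4.3.3) with 4 groups, trend and robust variance, and Benjamini-Hochberg adjustment over 34769 regions, called under 0.1, the limit of the methods. Python 3.11.15, numpy 2.4.6, pandas 2.3.3 and matplotlib 3.10.9 were used. Overlap code and the limma fit were checked on simulated data. Alternatives changed the start sites, window, threshold, flank, merging, scaling, measure and libraries.

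The genes, lists and markers were chosen with earlier results of these data known. By rule, values in every library were given for promoters in germline methylated regions, H19 and Meg3, the 4 highest and 4 lowest members, members without a strong peak in some library, regions called or found in 1 group only, and the strongest region of each cluster outside promoters. RefSeq elements, VISTA enhancers, host pairs, Nespas, CCAAT and the repeat measure were added after values were seen.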

Additional observations from a re-analysis of the deposited data

How the results depend on the processing

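The number of imprinted promoters with a strong peak in all libraries was 15, and also 15 with curated starts, 17 with 500 bp on either side, 12 with the summit in the window, 11 at a -log10 q of at least 4 and 15 to 18 with 1 library left out. At any threshold it was 24 to 30, beside 26. Promoters differing between GFP+ and Tomato+ by presence numbered 1, but 0 with 500 bp on either side, 3 with the summit in the window and 3 to 8 with 1 of these libraries left out. Regions shared by all libraries numbered 64, but 40 with strong peaks only, and 55 to 74 in the other alternatives. Regions differing in GFP+ against Tomato+ numbered 0, but 1 with pileup scaled to tags only (Gnas with the Nespas starts, -1.03) and 0 to 1 with 1 library left out (1 without Tomato+ replicate 6, past Slc22a2, 0.95, which was -0.01 without Tomato+ replicate 8). Over the alternatives of that comparison the smallest adjusted p of a member region ran from 0.067 to 0.565. In Tomato+ against Tomato- 0 regions were called, and 0 to 1 with 1 library left out (1 without Tomato+ replicate 8, at Airn). In GFP+ against GFP- and in the difference between lines 0 were called in each alternative run. The Airn region entered the fit without Tomato+ replicate 8 only because that library, which had no peak there, was left out. The causes of these changes were not tested. Of 148 counts of libraries per member promoter 109 did not change, 21 changed by 1 library and 18 by 2 or more. Of 127 differences of named regions 126 kept their direction, 124 of them without a call, and 12 moved by over 1.5 times. Without the Tomato- library, Tomato+ against Tomato- and the difference between lines cannot be given. No paired analysis was possible because the groups share no replicate number. Depth limits the weak peaks: a peak at the lowest deposited pileup had 6 to 9 tags.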

Other observations

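Other genes of the imprinted neighborhoods, listed as hosts and neighbors, had promoters of differing height. Nap1l4 and Tssc4, on the edge of the Kcnq1 cluster, were strong in all 7 libraries at 2.2 to 4.1 and 2.08 to 3.63, above Phlda2, Ascl2 and Kcnq1 in every library. Cd81, in the same cluster, was strong in all 7 at 0.85 to 1.43. Copg2, the neighbor of Mest, was strong in all 7 at 1.58 to 2.39, above Mest in every library. Casd1 and Ppp1r9a, the neighbors of Sgce and Peg10, were strong in all 7 at 0.958 to 1.5 and 0.75 to 1.18. Calcr, the calcitonin receptor gene of that cluster, was strong in all 7 at 0.467 to 1.05, and Asb4 in 1. Klf14, beyond Mest, was strong in 5, Ddc, next to Grb10, in 3 and Th, the tyrosine hydroxylase gene beyond Ins2, in 1. Peg12, in the Snrpn cluster, was strong in all 7 at 0.60 to 0.909. These values are given with no test, since the list was set with earlier results known.

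Tomato+ replicate 6, which had the fewest estimated tags, held the highest peak of the 7 libraries at VISTA enhancers mm50, mm89 and mm178. It alone had a peak, of 0.50, at VISTA enhancer mm183 in Kcnq1. The other Tomato+ library was at 0.652 in mm50 and 0.565 in mm89 and had none in mm178 and mm183. At VISTA enhancers mm47 and mm799 the highest library was another, GFP- replicate 1 at 0.87 and GFP+ replicate 3 at 0.90, where Tomato+ replicate 6 was at 0.65 and 0.60. The part of this library in these values was not tested.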
